A study of Mus musculus with 6 samples.

Results

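The genes described here belong to the NRF2, glutathione and oxidative stress program, a list of 35 mouse genes. The list was chosen with earlier results of these data known, and 29 of its genes could be read on their own. A gene was read from a probe set (a group of array probes summarised as 1 value) annotated to exactly 1 gene symbol, and for Keap1 and Slc7a11, which had 2 each, the one of higher mean value was used. Prdx1, Tkt and Esd were annotated only on probe sets that carry several symbols, and Prdx5, Prdx6 and G6pdx had no named probe set in the annotation used here, so these 6 were not analysed here. Probe sets annotated to both Gsta1 and Gsta2, glutathione transferases of the alpha class, are shown beside the list.

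NRF2, encoded by Nfe2l2, is a transcription factor that the adaptor KEAP1 marks for degradation in unstressed cells. Oxidants and electrophiles modify KEAP1, NRF2 then accumulates, and with small MAF partners it binds antioxidant response elements, while BACH1 competes for such sites as a repressor. Its known targets make and recycle glutathione and thioredoxin, supply NADPH, break down heme and quinones and conjugate and export foreign compounds. In macrophages, which produce superoxide and nitric oxide themselves, the program is known for limiting oxidative damage and inflammatory gene expression.

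Expression was measured on 6 whole-transcript arrays of RAW264.7, an established mouse line of monocyte and macrophage character, with 3 arrays per group. Cells of both groups were grown in DMEM with 10% FBS and then starved. Treatment was in DMEM with 2% FBS, with 50 ng/ml of IL-33, an alarmin cytokine related to IL-1, or with PBS as the control. How long treatment lasted was not stated. Groups follow the sample titles. The array names within the sample descriptions carry the letters IL for the PBS samples and the letter P for the IL-33 samples, so each direction given here would turn if the titles were exchanged.

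Values are log2 expression values, and a difference is the IL-33 mean minus the PBS mean on that scale. Array medians lay between 5.31 and 5.36, and across genes the arrays correlated at r = 0.9967 to 0.9980. All 10 macrophage markers were measured, 9 of them at or above the median level of all genes, with Mertk at 5.16 as the exception. Their mean level lay between 10.87 and 10.91 in the PBS arrays and between 10.90 and 10.95 in the IL-33 arrays, and 1 passed, Fcgr1, which was higher. Markers of fibroblasts, lymphocytes, epithelium and endothelium, mast cells and neutrophils had mean levels of 3.97 to 5.43 in every array, and none of them passed. Col1a1, at 6.31, was the only fibroblast gene at or above the median level of all genes. Of the epithelial and endothelial genes 2 were, with Krt8 highest at 6.17, and no gene of the other 3 lists was. With no detection calls, no marker was called absent. In such bulk samples fewer cells of a type and less RNA per cell cannot be told apart. Whether replicates were separate cultures was not stated, and the p-values cover only the spread among these arrays, technical or not.

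Promoter sequences were read from RefSeq windows on GRCm38.p6 that run from 250 bases before to 50 after each annotated start. They are shown because the consensus core that NRF2 recognises, TGACNNNGC on either strand (GCNNNGTCA when read on the opposite strand), can be looked for in them. Of the 35 listed genes 29 had a window, and 11 of these 29 genes (37.9%) held at least 1 match, against 14.0% of all 27025 genes with windows. Counted by window, this was 28.2% of 39 against 12.4% of 32851. Of the 11 genes lower in the IL-33 arrays at an unadjusted p under 0.05, 9 had a window. The 9 are part of the 29, and whether matches go with lower values was not tested. Of the 9 genes 3 (33.3%) held a match. Those 3, Gclm, Txnrd1 and Srxn1, none of which passed after adjustment, are printed, and Ugdh is printed as a gene with 2 matches that was not lower. The stretches run 5′ to 3′ in the direction of the gene and capitals mark the matches.

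Gclm, chr3:122245307-122245556, plus strand, all 250 bases before the start, with the match at positions -134 to -126 on the opposite strand.
Gclm: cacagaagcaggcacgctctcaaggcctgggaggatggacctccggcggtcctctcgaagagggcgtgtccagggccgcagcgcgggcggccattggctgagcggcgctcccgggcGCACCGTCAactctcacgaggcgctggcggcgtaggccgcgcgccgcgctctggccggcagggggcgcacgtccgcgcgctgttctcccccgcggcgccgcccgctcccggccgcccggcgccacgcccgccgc
Txnrd1, chr10:82858956-82859205, plus strand, before 1 of its 3 annotated starts, with the match at positions -92 to -84 on the opposite strand.
Txnrd1: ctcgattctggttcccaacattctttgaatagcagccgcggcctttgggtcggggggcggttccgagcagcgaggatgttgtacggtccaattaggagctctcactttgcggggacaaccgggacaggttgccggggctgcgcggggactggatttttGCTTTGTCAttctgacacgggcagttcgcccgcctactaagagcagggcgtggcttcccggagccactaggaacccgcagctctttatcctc
Ugdh, chr5:65435843-65436092, minus strand, all 250 bases before the start, with a match at positions -132 to -124 and another at positions -94 to -86 on the opposite strand.
Ugdh: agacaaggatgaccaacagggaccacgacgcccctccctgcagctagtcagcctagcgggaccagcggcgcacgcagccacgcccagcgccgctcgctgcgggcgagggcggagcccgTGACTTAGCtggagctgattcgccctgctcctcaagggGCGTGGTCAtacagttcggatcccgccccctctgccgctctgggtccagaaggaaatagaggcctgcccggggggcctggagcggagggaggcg
Srxn1, chr2:152105541-152105570, plus strand, 30 bases around a match that lies just after the start, at positions 29 to 37, on the opposite strand.
Srxn1: ggcagtgggcaGCTAGGTCAgagtgagaca

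A match is a run of letters and not a measured binding site. Nfe2l2 itself, Prdx1, Pgd, Mgst1, Me1, Sod1 and G6pdx also held a match. The windows of Gsta1 and Gsta2 held none, and windows of Hmox1, Gclc, Gsr, Gsta4, Abcc1 and Prdx6 were not used here. Sequence outside the windows was not searched, so a window without a match does not mean that the gene lacks one.

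The comparison asked how expression of this program differed between cells given IL-33 and cells given PBS. Most of the genes were slightly lower in the arrays labelled IL-33. Those lower at an unadjusted p under 0.05 (limma) were Slc7a11, Gclc, Gclm, Srxn1, Txnrd1, Cat, Gpx1, Hmox1, Nqo1, Osgin1 and Gstm1. They were 1.13-fold (Txnrd1) to 1.28-fold (Gstm1) lower, while the transcription factor gene Nfe2l2 differed by only -0.02. Of the 29 genes 26 had a difference below 0, where 52.1% of all 22180 genes tested did, and 47.8% of the 11090 genes at or above the median level, where 27 of the 29 lay. The median difference was -0.07 over the 29 genes and -0.01 over all genes. None of the 29 had an adjusted p under 0.05 by limma with Benjamini-Hochberg adjustment over all genes, where 0.275% of all genes were called higher and 0.316% lower. At an unadjusted p under 0.05, 11 of the 29 were lower and 1 was higher, where 6.74% and 6.42% of all genes were. The 3 IL-33 values lay entirely below the 3 PBS values in 15 of the 29 and entirely above them in 2. The shares over all genes were 10.1% and 10.3%, and the groups overlapped in 12 of the 29. The list was chosen with earlier results of these data known, and shares over all genes do not correct for that choice.

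Whether single genes passed depended on how the variance was modelled and on which genes were tested. With a prior variance trended on intensity and robust to outliers 10 of the 29 passed, all lower, where 2.12% of all genes were called lower. Among genes at or above the median level 9 of 27 passed, all lower, where 3.24% of those genes were. With 1 array left out none of the 29 passed in any of the 6 fits. Between 15 and 83 of all genes were called in those fits, against 131 with every array kept. With so few calls over all genes, these fits cannot show whether the lack of calls was particular to the 29 genes.

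**Figure D1:**
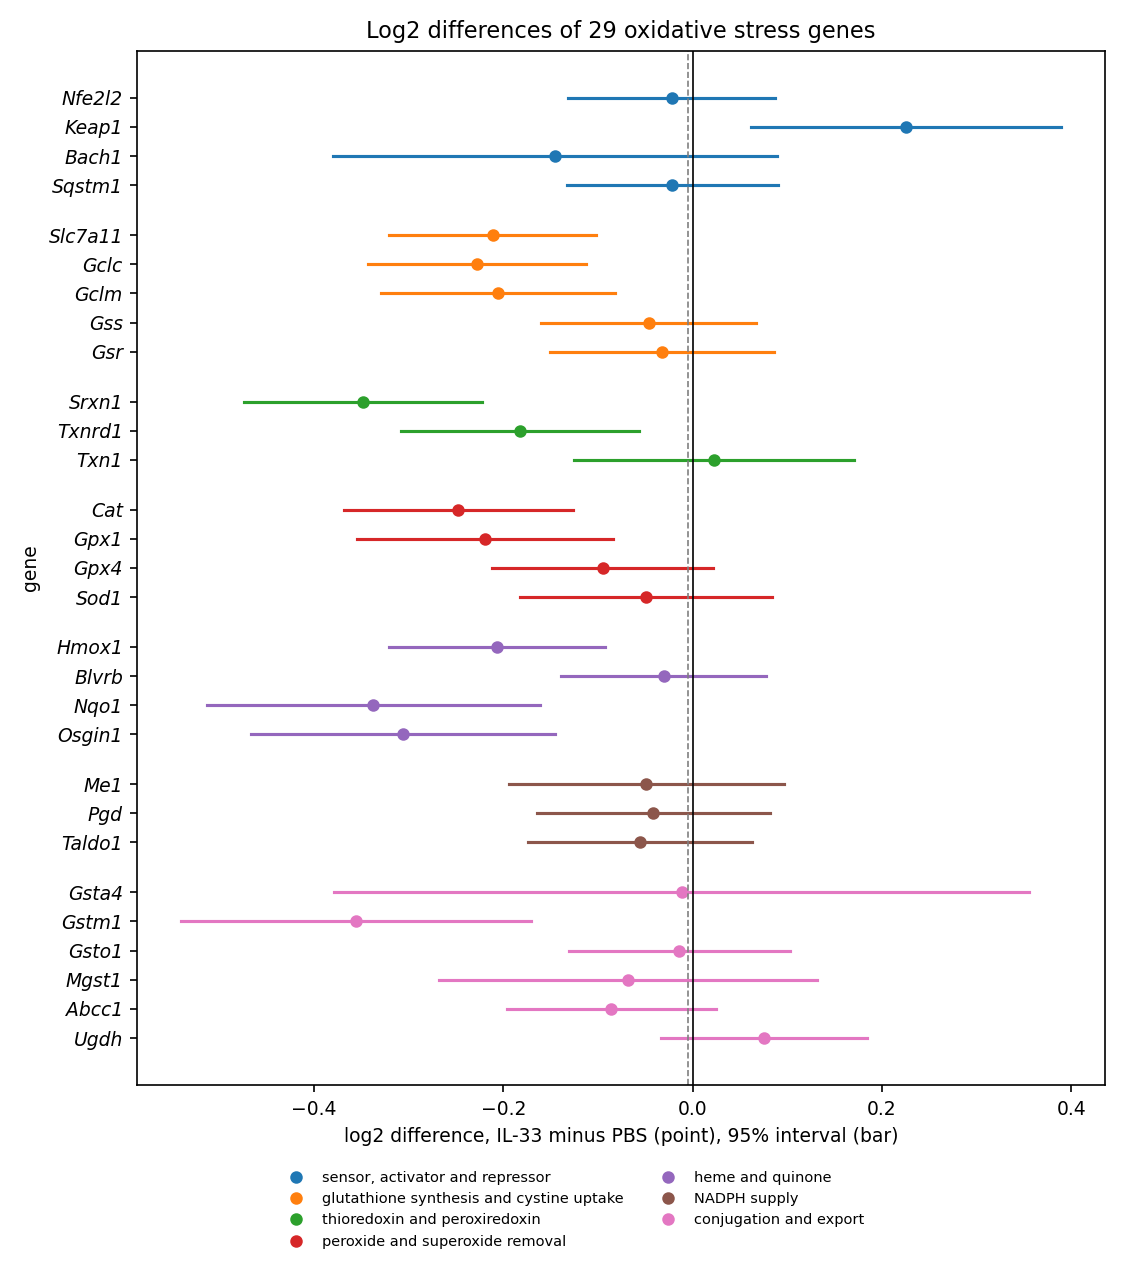
Log2 difference of each of the 29 genes, IL-33 minus PBS (horizontal axis), with its 95% interval from the limma fit, coloured by role. The dashed line is the median of all genes tested, at -0.01. Points lie from -0.36 for Gstm1 to 0.23 for Keap1, and 26 of them lie left of 0.

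The same values were also read array by array, to see whether the tendency rested on 1 array. After subtracting each gene's mean over the 6 arrays, the median deviation over the 29 genes was 0.07, 0.02 and 0.05 in PBS replicates 1, 2 and 3 and -0.06, -0.05 and -0.07 in IL-33 replicates 1, 2 and 3. The number of genes below their own mean was 5, 10 and 8 in the PBS arrays and 25, 24 and 21 in the IL-33 arrays. The same count over all genes was not made. Subtracting that mean makes the group averages opposite in sign for each gene. These deviations therefore restate the differences above and are no further support. With any 1 array left out 25 or 26 of the 29 genes had a difference below 0. The median deviation of all genes stayed between -0.01 and 0.01 in every array.

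**Figure D2:**
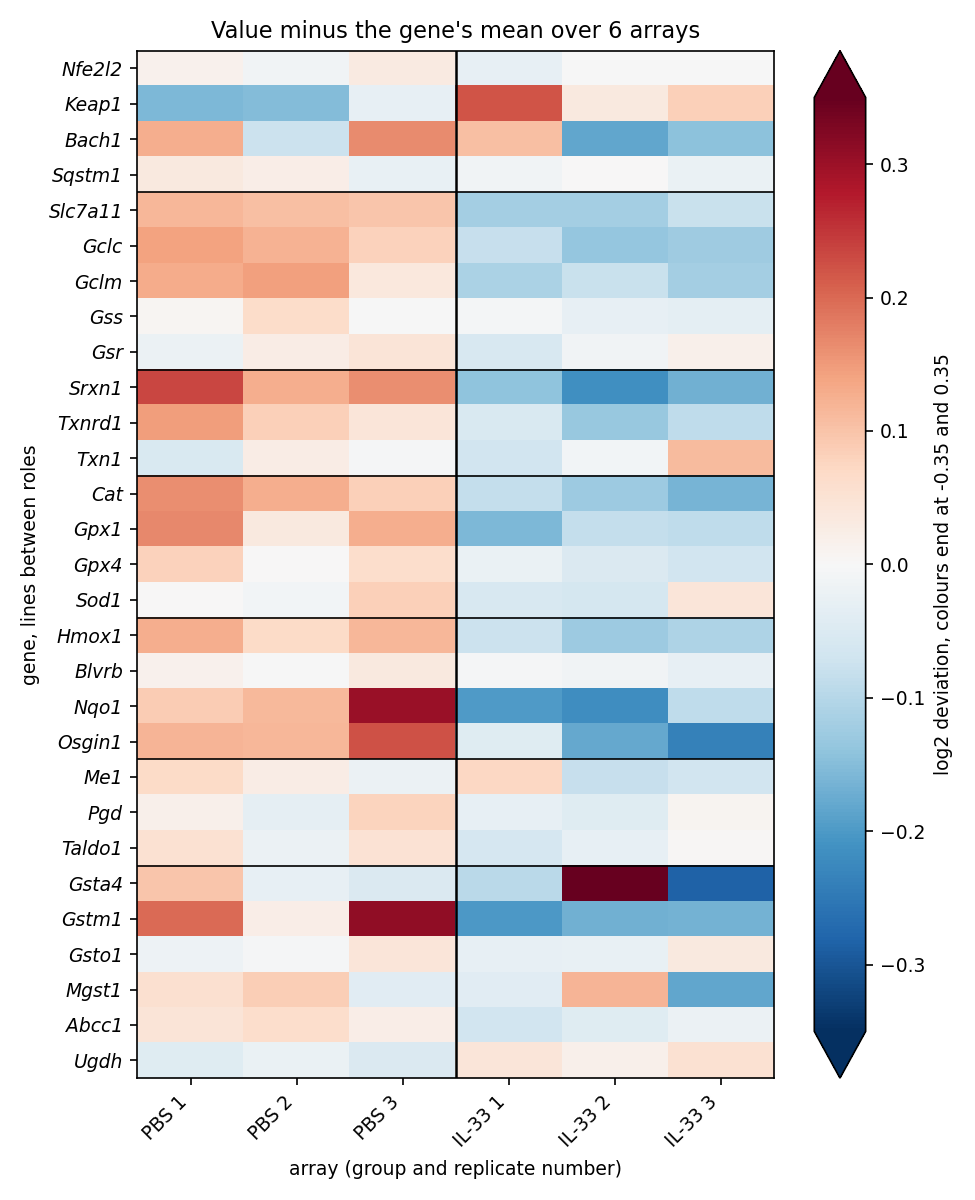
Deviation of each value from the gene's mean over the 6 arrays (colour, log2), with genes in rows grouped by role and arrays in columns. The rows of Slc7a11 to Gclm, of Srxn1 and Txnrd1 and of Cat and Gpx1 are red in all PBS arrays and blue in all IL-33 arrays, whereas Keap1 runs the other way and Gsta4 varies within the IL-33 group, from 4.93 to 5.57.

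Among the regulators, the transcription factor gene itself differed little. Nfe2l2 (Entrez gene 18024) had log2 values of 11.53, 11.50 and 11.54 in the PBS arrays and 11.48, 11.51 and 11.51 in the IL-33 arrays. The groups overlapped, and the difference was -0.02 with a 95% interval of -0.13 to 0.09. An mRNA value does not measure NRF2 protein, which KEAP1 controls by degradation. Sqstm1, which encodes the autophagy receptor p62 that binds KEAP1, differed by -0.02 with an interval of -0.13 to 0.09. Bach1, the repressor, differed by -0.15 with an interval of -0.38 to 0.09.

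Keap1, the adaptor that marks NRF2 for degradation, had the largest difference above 0. Its values were 7.93, 7.94 and 8.06 in the PBS arrays and 8.31, 8.12 and 8.18 in the IL-33 arrays. All IL-33 values lay above all PBS values, with a difference of 0.23 ± 0.07 (SE, n = 3 per group) (limma, adjusted p = 0.235). The other Keap1 probe set had the opposite sign, at -0.21 ± 0.09 (SE, n = 3 per group), with groups that overlapped. Averaged over both probe sets the difference was 0.01, so no direction can be given for Keap1.

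Of 5 genes of cystine import and glutathione synthesis and recycling, 4 had IL-33 values entirely below the PBS values, against 10.1% of all genes. None of the 5 passed. Slc7a11 (Entrez gene 26570), the cystine carrier of the xCT exchanger, had values of 12.34, 12.33 and 12.32 in the PBS arrays and 12.11, 12.11 and 12.15 in the IL-33 arrays. The PBS values agreed within 0.02 of each other, and the IL-33 mean was lower by 0.21 ± 0.05 (SE), or 1.16-fold (limma, adjusted p = 0.118). Its other probe set had a difference of -0.28, also with groups that did not overlap.

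Glutamate-cysteine ligase, the rate-limiting enzyme of glutathione synthesis, has a catalytic subunit encoded by Gclc and a modifier subunit encoded by Gclm. Gclc had values of 10.23, 10.21 and 10.17 in the PBS arrays and 10.01, 9.95 and 9.96 in the IL-33 arrays. Gclm had values of 11.95, 11.96 and 11.85 against 11.71, 11.74 and 11.70. Neither subunit's groups overlapped, and both were lower, Gclc 1.17-fold with an adjusted p of 0.113 and Gclm 1.15-fold (limma, adjusted p = 0.168). Gss, glutathione synthetase, which completes the molecule, also had groups that did not overlap, by a narrow margin, and a difference of -0.05 with an interval of -0.16 to 0.07. Gsr, the reductase that regenerates glutathione from its oxidised form, had a difference of -0.03 with an interval of -0.15 to 0.09. The intervals of Gclc and Slc7a11, -0.34 to -0.11 and -0.32 to -0.10, did not include 0, and differences between genes were not tested.

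Srxn1 (Entrez gene 76650), sulfiredoxin, repairs over-oxidised peroxiredoxins and had the smallest p of the 29 genes. Its values were 11.29, 11.19 and 11.22 in the PBS arrays and 10.92, 10.85 and 10.89 in the IL-33 arrays. The lowest PBS value exceeded the highest IL-33 value by more than the range within either group, and the IL-33 mean was 1.27-fold lower. Its adjusted p was 0.0510 (limma), ranking 139 by p among all genes where 131 were called, so it lay just outside the threshold. It passed at 0.0479 with arrays centred on their 75th percentile and at 0.0424 with array weights, and lay at 0.101 to 0.21 with 1 array left out.

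In the thioredoxin system 2 of the listed genes besides Srxn1 were measured. Txnrd1, thioredoxin reductase of the cytosol, had values of 11.01, 10.95 and 10.91 in the PBS arrays and 10.81, 10.73 and 10.77 in the IL-33 arrays. Its groups did not overlap, and it was 1.13-fold lower (limma, adjusted p = 0.214). Txn1, thioredoxin itself, differed by 0.02 with an interval of -0.13 to 0.17, and its sign turned when IL-33 replicate 3 was left out.

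Of the enzymes that remove peroxides and superoxide, 3 of 4 had IL-33 values entirely below the PBS values, against 10.1% of all genes. The groups of Sod1, the cytosolic superoxide dismutase, overlapped. Cat (Entrez gene 12359), catalase, had values of 12.54, 12.50 and 12.46 in the PBS arrays and 12.29, 12.25 and 12.21 in the IL-33 arrays. The groups did not overlap, and it was 1.19-fold lower (limma, adjusted p = 0.105). Gpx1, the main cytosolic glutathione peroxidase, had values of 10.46, 10.33 and 10.42 against 10.14, 10.21 and 10.21. Its groups did not overlap either, and it was 1.16-fold lower (limma, adjusted p = 0.173). Gpx4, which reduces lipid peroxides and protects cells from ferroptosis, differed by -0.09 with an interval of -0.21 to 0.02, and Sod1 by -0.05 with an interval of -0.18 to 0.08.

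Genes of heme and quinone metabolism included several of the most used reporters of NRF2 activity. Hmox1 (Entrez gene 15368), heme oxygenase 1, had values of 12.43, 12.37 and 12.42 in the PBS arrays and 12.23, 12.18 and 12.20 in the IL-33 arrays. Its groups did not overlap, and it was 1.15-fold lower (limma, adjusted p = 0.139). Blvrb, a biliverdin reductase, had groups that only just did not overlap and differed by -0.03 with an interval of -0.14 to 0.08.

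Nqo1 (Entrez gene 18104), the quinone reductase, had values of 5.24, 5.27 and 5.46 in the PBS arrays and 4.96, 4.94 and 5.06 in the IL-33 arrays. It was 1.26-fold lower with groups apart (limma, adjusted p = 0.119), but its level lay below 5.75, the median over all genes. Nqo1 was therefore not among the genes tested when dim genes were left out. Osgin1, a stress-induced growth inhibitor, had values of 8.51, 8.51 and 8.61 against 8.35, 8.21 and 8.15. It was 1.24-fold lower with groups apart (limma, adjusted p = 0.120).

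The measured enzymes that supply NADPH differed little. Me1, malic enzyme, differed by -0.05, Pgd, phosphogluconate dehydrogenase of the pentose phosphate pathway, by -0.04, and Taldo1, transaldolase of the same pathway, by -0.06. All 3 had groups that overlapped, and their 95% intervals together ran from -0.19 to 0.10. A window of Me1 and the window of Pgd each held a match to TGACNNNGC, and a relation between matches and differences was not tested.

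Conjugating and exporting enzymes were mixed. Gstm1, a mu class glutathione transferase, had values of 8.11, 7.94 and 8.22 in the PBS arrays and 7.71, 7.74 and 7.75 in the IL-33 arrays. It had the largest difference of the 29 genes, 1.28-fold lower with groups apart (limma, adjusted p = 0.118). Mu class genes are near-identical in sequence in places, so probes may share signal between them. Gstm2, another of that class, had a difference of -0.49 (limma, adjusted p = 0.267). Its means, 5.34 in the PBS arrays and 4.85 in the IL-33 arrays, lay below the median over all genes.

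The remaining genes of this role had differences within 0.09 of 0. Ugdh, which makes UDP-glucuronate for conjugation, had values of 9.45, 9.47 and 9.44 (log2) in the PBS arrays and 9.54, 9.51 and 9.55 in the IL-33 arrays. It was the other gene, besides Keap1, with IL-33 values all above the PBS values, at a difference of 0.08 (limma, adjusted p = 0.545). Abcc1, which exports glutathione conjugates, differed by -0.09 with groups apart. The transferases Gsto1 and Mgst1 differed by -0.01 and -0.07, and Gsta4, which conjugates lipid aldehydes, by -0.01 with a wide interval of -0.38 to 0.36.

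**Figure D3:**
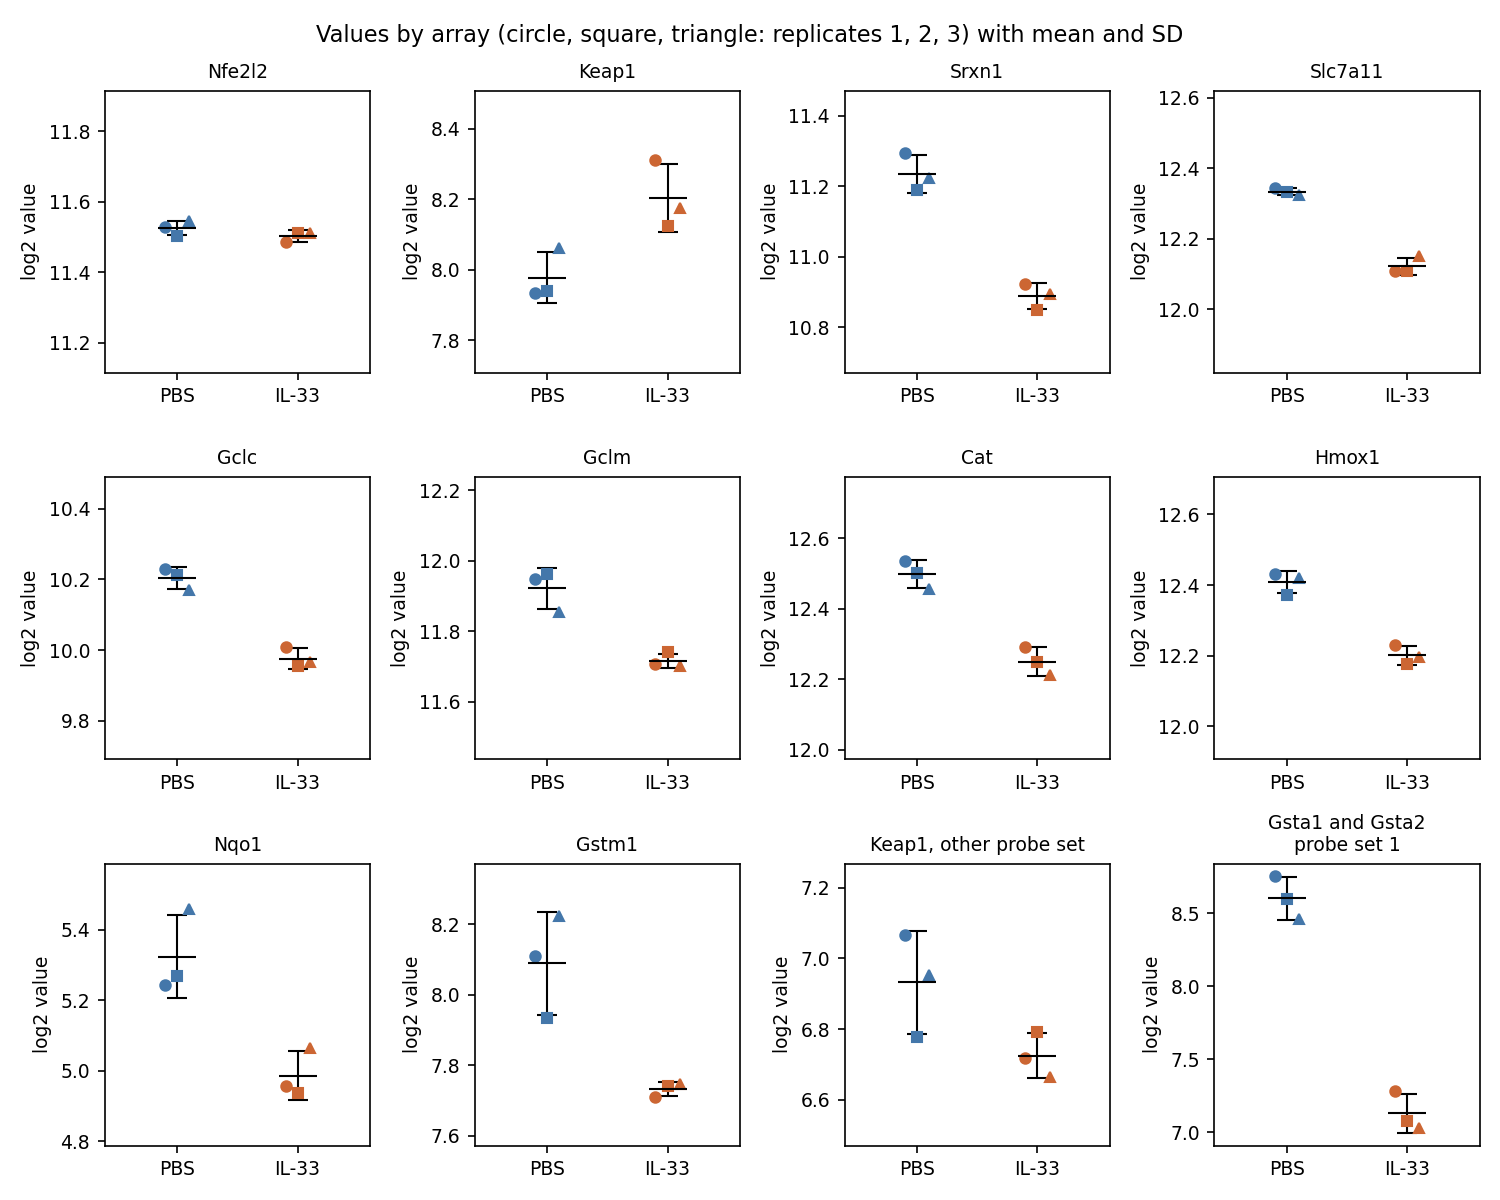
Log2 value of every array for 10 genes, the other Keap1 probe set and a probe set shared by Gsta1 and Gsta2, with group means and SD (n = 3) and an axis that does not start at 0. Panels span at least 0.8 log2 units, and the shared Gsta probe set spans more, with PBS values from 8.46 to 8.75 and IL-33 values from 7.03 to 7.28.

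The largest difference in the pathway was on a probe set annotated to Gsta1, Gsta2 and 2 predicted genes, Gm3776 and Gm10639. Its values were 8.75, 8.60 and 8.46 in the PBS arrays and 7.28, 7.07 and 7.03 in the IL-33 arrays. The groups lay more than 1 log2 unit apart, and the IL-33 mean fell by 1.48 ± 0.10 (log2, SE), or 2.78-fold. Among 41155 probe sets other than controls it passed (limma, adjusted p = 0.0267), as 0.0316% of them did on the lower side. It did not pass in any of the 6 fits without 1 array, with adjusted p of 0.0759 to 0.232 and differences of -1.55 to -1.40. Because the probe set carries 4 symbols, the value cannot be assigned to one of these genes.

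Of 2 further probe sets that share Gsta1 and Gsta2, one had values of 7.58, 7.44 and 7.44 in the PBS arrays and 6.89, 7.21 and 6.98 in the IL-33 arrays. Its groups did not overlap either, with a difference of -0.46 (limma, adjusted p = 0.274). The other had group means of 2.97 and 2.87 and differed by -0.10 with groups that overlapped. The differences ran from -1.48 to -0.10 over the 3 probe sets. The one at -0.10 lay far below the median over all genes, where a difference may not show. It therefore says little about the size.

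Other genes of the pathway were read from lists of genes that are no members. Of 28 measured further NRF2 targets, detoxification enzymes and NADPH sources 1 fell and 27 did not pass (0.316% of all genes fell), and their median difference was -0.01. At an unadjusted p under 0.05, 5 of the 28 were lower and 1 higher, against the 6.74% and 6.42% of all genes given above, and the groups did not overlap in 7 lower and 2 higher genes, against 10.1% and 10.3%. The gene that fell was Ptgr1, a reductase of leukotrienes and reactive alkenals. Its values were 9.13, 9.09 and 9.12 in the PBS arrays and 8.65, 8.53 and 8.51 in the IL-33 arrays, 1.47-fold lower (limma, adjusted p = 0.0160). It passed without IL-33 replicate 1, at 0.0219, and was lost in the other 5 such fits, at up to 0.0925. It was also lost in the fit over all probe sets from which the shared Gsta probe set was read, at 0.0862, and under the replicate block, at 0.0975.

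None of 12 further NRF2 regulators, 31 further glutathione genes and 19 further peroxide, thioredoxin and superoxide genes passed (limma), and at an unadjusted p under 0.05 these lists gave 1, 2 and 1 lower genes and 0, 1 and 3 higher genes, where 6.74% of all genes were lower and 6.42% higher. Their medians were -0.06, -0.003 and 0.02. Maff and Mafk, partners of NRF2, were lower by 0.20 and 0.15, with adjusted p of 0.213 and 0.414 (limma), and Dpp3, which binds KEAP1, and Gsk3b, a kinase that marks NRF2 for degradation, differed by -0.12 and -0.10. Msrb1, a methionine sulfoxide reductase, differed by -0.32 with an adjusted p of 0.102, whereas the peroxiredoxins of mitochondria and the endoplasmic reticulum, Prdx3 and Prdx4, differed by 0.17 and 0.22 with adjusted p of 0.203 and 0.170 (limma). Sesn1, a stress-induced sestrin, differed by 0.23 with an adjusted p of 0.202 (limma). Of the further glutathione genes, Gstk1, the kappa class transferase, differed by -0.20 with groups apart (limma, adjusted p = 0.219), besides Gstm2 described above. The means of Gstk1, 4.27 in the PBS arrays and 4.07 in the IL-33 arrays, also lay below the median over all genes. Glrx, glutaredoxin, and Chac2, which degrades glutathione, differed by 0.13 and 0.25, with adjusted p of 0.328 and 0.396 (limma). The antioxidant genes outside the list thus had differences of both signs.

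**Figure D4:**
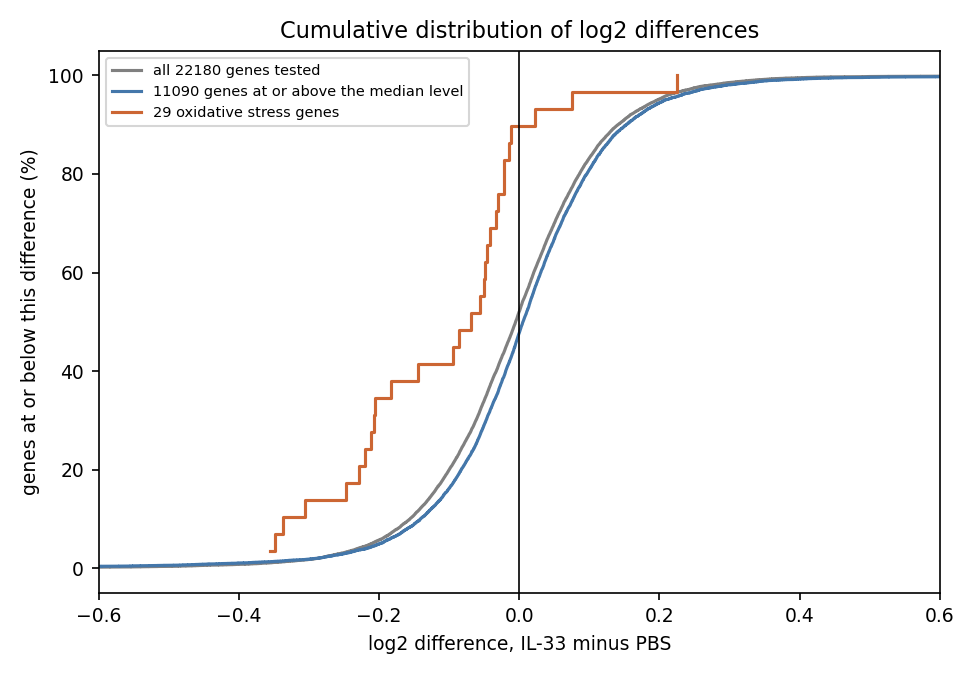
Cumulative share of genes (vertical axis, %) at or below a given log2 difference (horizontal axis) for the 29 genes, all 22180 genes tested and the 11090 at or above the median level, shown from -0.6 to 0.6. The curve of the 29 genes lies left of the others over most of the range, with 26 of 29 genes below 0 against 52.1% and 47.8%.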

How the data were processed

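The authors deposited log2 values, 1 per probe set for each array, made with RMA per the submitters' processing notes; its version, its settings and the genome build were not stated. RMA equalises the distributions of arrays, which hides any shift common to most genes, and compresses dim signals. Of 41345 probe sets 23521 carried 1 symbol, 1814 several and 16010 were unnamed here. Entrez IDs of 23328 matched the RefSeq gene table, and 0 symbols changed. The 22180 genes were fitted with limma's lmFit and eBayes functions (version 3.58.1, R 4.3.3) without covariates or filter, with Benjamini-Hochberg adjustment over all genes and a threshold of 0.05. Probe sets of several symbols were read from a fit over all 41155 probe sets other than controls. Levels of different probe sets are not comparable, and were set only against the median over all genes. The number of arrays limits the precision.

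The genes and lists were chosen with earlier results of these data known. Counts are set beside those over all genes, which does not correct for that choice, and no list was tested. All 29 genes are named, and of each other pathway list those that passed or else the 4 with the smallest p. Alternatives were a filter on dim genes, quantile normalization, centring, averaged probe sets, another prior variance, array weights, a replicate block, all probe sets, and each array left out. Data with 22180 genes were simulated for this comparison, with independent errors drawn from the fitted variances. The fit found 62.2% of the changes of 0.5 (log2) and 94.8% of those of 1, and 4.99% of its calls were unchanged genes. Changes below 0.5, the range in which all differences of the 29 genes lay, were not simulated. Plots used matplotlib 3.10.9 (Python 3.11.15).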

Additional observations from a re-analysis of the deposited data

How the results depend on the processing

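None of the 29 genes passed in the fit as reported, in the replicate block, with probe sets averaged, over all probe sets or without any 1 array. One, Srxn1, passed with a further quantile normalization, with centring on the 75th percentile and with array weights, 9 did when dim genes (below the median level) were left out, and 10 with the trended and robust prior variance, all lower. The 11 genes lower at an unadjusted p under 0.05 stayed so in every alternative, except Nqo1 among the brighter genes, where it was not tested. Over all genes 131 were called, 61 higher and 70 lower. This became 760 (401 and 359) among brighter genes, 1000 (530 and 470) with the trended prior and 17 (4 and 13) over all probe sets, and 106 were lower with array weights. With the replicate block it was 21 (5 and 16). Same-numbered arrays deviated together at r = 0.04, 0.0566 and 0.0194, and differently numbered arrays at r = -0.0747 to 0.035. The numbers were not taken as pairs, a choice that these values do not settle. Without 1 array 15 to 83 genes were called (4 to 28 higher, 10 to 55 lower). The median of the 29 genes then ranged from -0.0909 to -0.0617. Signs turned without 1 array for Gsta4 (-0.195 to 0.127, and 0.021 with a further quantile normalization), Gsto1 (-0.0345 to 0.0033), Txn1 (-0.0274 to 0.0616), Mgst1 (-0.144 to 0.0051) and the Gsta1 and Gsta2 probe set with means of 2.97 and 2.87 (-0.201 to 0.0203). The Gsta1 and Gsta2 probe set that had passed kept its size, -1.476, under the replicate block with an adjusted p of 0.212, and ranged from -1.552 to -1.401 without 1 array, not passing. Ptgr1 had an adjusted p of 0.0975 under the replicate block and 0.0862 over all probe sets. Causes were not tested. Of 639 values of named genes under an alternative, 593 kept direction and side of the threshold, 32 passed newly, 7 were lost and 7 changed sign.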

Other observations

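Genes that make reactive oxygen and nitric oxide were read beside the antioxidant genes. Of 15 measured genes of the NADPH oxidase and of nitric oxide synthesis none passed (limma), and at an unadjusted p under 0.05, 5 were higher and 3 lower, where 6.42% and 6.74% of all genes were, with a median difference of -0.02. Nos2, the inducible nitric oxide synthase, had values of 12.02, 11.83 and 12.02 in the PBS arrays and 11.78, 11.60 and 11.67 in the IL-33 arrays, a difference of -0.28 with groups that did not overlap (limma, adjusted p = 0.202). Gch1, which makes the cofactor that nitric oxide synthases need, had values of 9.09, 9.02 and 9.04 against 9.28, 9.27 and 9.33, a difference of 0.24 (limma, adjusted p = 0.105). Ncf1, a cytosolic subunit of the phagocyte oxidase, and Nox1, a catalytic subunit of another oxidase, differed by 0.15 and 0.30, with adjusted p of 0.324 and 0.214 (limma). Averaged over the 6 arrays, the level of Nox1 lay below the median over all genes. Nos2 and Gch1, the enzyme and its cofactor supplier, thus had differences of opposite sign, neither of which passed.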
